A study of Mus musculus with 10 samples.

Results

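The comparison set splenic pre-cDC2 against splenic pre-cDC1, both from mice in which the sheddase gene Adam10 was deleted in CD11c-expressing cells. All 5 libraries came from C57BL/6 mice of the genotype CD11c-cre Adam10fl/fl. In these mice a CD11c promoter drives Cre, and the floxed segment of Adam10 is removed wherever and whenever that promoter is active. The groups were 3 libraries labelled pre-cDC1, whose sample titles carry the letters DN, and 2 libraries labelled pre-cDC2, whose titles carry the name Ly6C. The sources used here do not give age, sex or sort gates. The series holds 10 libraries in all, and its wild-type libraries were not used here. Genes were described when their log2 RPKM (reads scaled to gene length and library size, on the log2 scale) was above 0 in at least 2 of these 5 libraries. That was so for 13430 of the 52550 genes in the deposited table. The labels do not say that replicates are separate mice, so p-values measure only the spread between these libraries.

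Conventional dendritic cells (cDCs) sample antigen and present it to T cells, and they form from committed precursors that leave the bone marrow for the spleen and still divide there. The cDC1 lineage depends on the transcription factors IRF8, BATF3 and ID2, takes up dead cells and presents their antigens to CD8 T cells on MHC class I. The cDC2 lineage depends on IRF4, ZEB2 and KLF4, is marked by SIRPα, and presents mainly on MHC class II to CD4 T cells. Both need the receptor FLT3 and its ligand. ADAM10 cuts membrane proteins close to the cell surface, among them Notch receptors, and so starts Notch signalling or frees soluble ligands.

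In what follows, values are given for replicates 1, 2 and 3 labelled pre-cDC1 and then for replicates 1 and 2 labelled pre-cDC2. "Higher" and "lower" always mean in the libraries labelled pre-cDC2 relative to those labelled pre-cDC1. A difference is the log2 RPKM mean of pre-cDC2 minus that of pre-cDC1, with its standard error (SE) from limma (n = 2 and 3). A gene is called when its limma p-value, adjusted by Benjamini and Hochberg over all 13430 genes, is under 0.05. Reads recovered from the deposited values came to 11357798, 10442561 and 7922948 in the pre-cDC1 libraries and to 8722946 and 7862441 in the pre-cDC2 libraries. The 10 most abundant genes took 12.3% to 15.3% of the reads in pre-cDC1 and 5.26% and 7.02% in pre-cDC2, and 16843 to 17169 genes had a read in pre-cDC1 against 18380 and 18794. Correlations across genes were 0.888 to 0.892 within pre-cDC1, 0.904 within pre-cDC2 and 0.545 to 0.572 between the groups, given as a description, since the points share their libraries.

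Adam10 itself (ENSMUSG00000054693.14, GRCm38 chromosome 9, 70678997 to 70780229) stood at -2.45, -3.90 and -1.50 log2 RPKM in pre-cDC1 and at 4.24 and 4.11 in pre-cDC2. These levels rest on 9, 3 and 13 reads against 909 and 742. The groups did not overlap, and the difference was 6.79 ± 0.79 (limma adjusted p = 0.00297). Both groups are labelled with the same floxed allele and the same Cre. The low level in pre-cDC1 goes with the label of a deleted gene, while the libraries labelled Adam10-deleted pre-cDC2 do not show it in the level of the whole gene. In which exons these reads lie was not tested. Adam17, the most closely related sheddase, lay at 4.34, 4.50 and 3.83 in pre-cDC1 and at 4.51 and 4.11 in pre-cDC2, with overlapping groups (0.09 ± 0.25, limma adjusted p = 0.837).

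The markers of both lineages were then read against the labels. Xcr1, the chemokine receptor that defines cDC1 (ENSMUSG00000060509.4, chromosome 9, 123852315 to 123862029), was at 8.30, 8.30 and 8.25 log2 RPKM in pre-cDC1 and at 0.64 and 0.19 in pre-cDC2. Clec9a, the cDC1 receptor for the actin of dead cells, was at 7.67, 7.71 and 7.73 against 4.80 and 4.93, so that the libraries labelled pre-cDC2 still held it. Sirpa, the signal-regulatory protein of cDC2, was at 1.34, 0.84 and 1.20 against 4.16 and 4.55 (3.23 ± 0.27, limma adjusted p = 0.001). Irf4 was at 1.65, 0.77 and -2.84 against 4.76 and 5.07, with pre-cDC1 replicate 3 resting on 5 reads. Its difference of 5.06 ± 1.34 was called at a limma adjusted p of 0.0459, and the call was lost without pre-cDC1 replicate 2 (adjusted p = 0.0715), without pre-cDC2 replicate 1 (0.125) or without pre-cDC2 replicate 2 (0.13). Ly6c2, one of the genes behind the Ly6C name in the titles, was at 3.23, 2.73 and 2.97 against 9.23 and 9.43 (6.35 ± 0.18, limma adjusted p = 7.106e-05).

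Several defining markers of cells other than cDCs also differed between the labels. Siglech, the sialic acid-binding receptor of plasmacytoid dendritic cells, was at 2.19, 2.00 and 1.92 log2 RPKM in pre-cDC1 and at 6.22 and 6.81 in pre-cDC2. Cd3e, a chain of the T cell receptor complex, had 4, 0 and 8 reads in pre-cDC1 and 1449 and 1618 in pre-cDC2. Trac, the constant segment of the T cell receptor α chain, had 1, 0 and 3 reads against 2446 and 1818, a read ratio of 1591 (exact 95% interval 621 to 5841). Ncr1, the activating receptor NKp46 of natural killer (NK) cells, had 0, 0 and 2 reads against 979 and 930. In the libraries labelled pre-cDC2, Lck (a T cell kinase) at 8.40 and 8.11 and Nkg7 (a granule protein of cytotoxic cells) at 9.12 and 8.85 stood at a higher level per length than Sirpa. Among B cell genes, Cd79a, of the B cell receptor, had 14, 0 and 2 reads against 21 and 11 and was not tested, while Igkc, the κ constant segment, had 12, 6 and 70 against 3269 and 3189 and was called higher. Spic, the factor of red pulp macrophages, had 7, 0 and 6 against 2 and 0. S100a8, a neutrophil calcium-binding protein, was at 4.59, 4.26 and 4.10 log2 RPKM against 3.46 and 4.06 (not called). Thus the names pre-cDC1 and pre-cDC2 are used below only as the labels of libraries. In bulk RNA, fewer cells of a type and less RNA per cell cannot be told apart.

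Transcripts of the Y chromosome differed between the groups too. Ddx3y, an RNA helicase, had 3, 1 and 0 reads in pre-cDC1 and 840 and 643 in pre-cDC2. Eif2s3y, a translation initiation subunit, had 2, 3 and 3 reads against 501 and 471, and Uty, a histone demethylase family member, had 0, 0 and 1 against 206 and 159. Kdm5d, a histone demethylase, had no read in pre-cDC1 and 101 and 260 in pre-cDC2, which is at least 60.5-fold higher against a floor of 3 reads per library. Xist, the X-inactivation RNA, was at 5.65, 5.64 and 5.85 log2 RPKM against 5.10 and 5.37 (-0.48 ± 0.14, limma adjusted p = 0.0586). Y-linked reads and the label moved together in these 5 libraries, so cell type and the source of the Y-linked reads cannot be told apart. The part that T cell, NK cell, plasmacytoid and Y-linked transcripts take in any difference below was not tested.

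**Figure D1:**
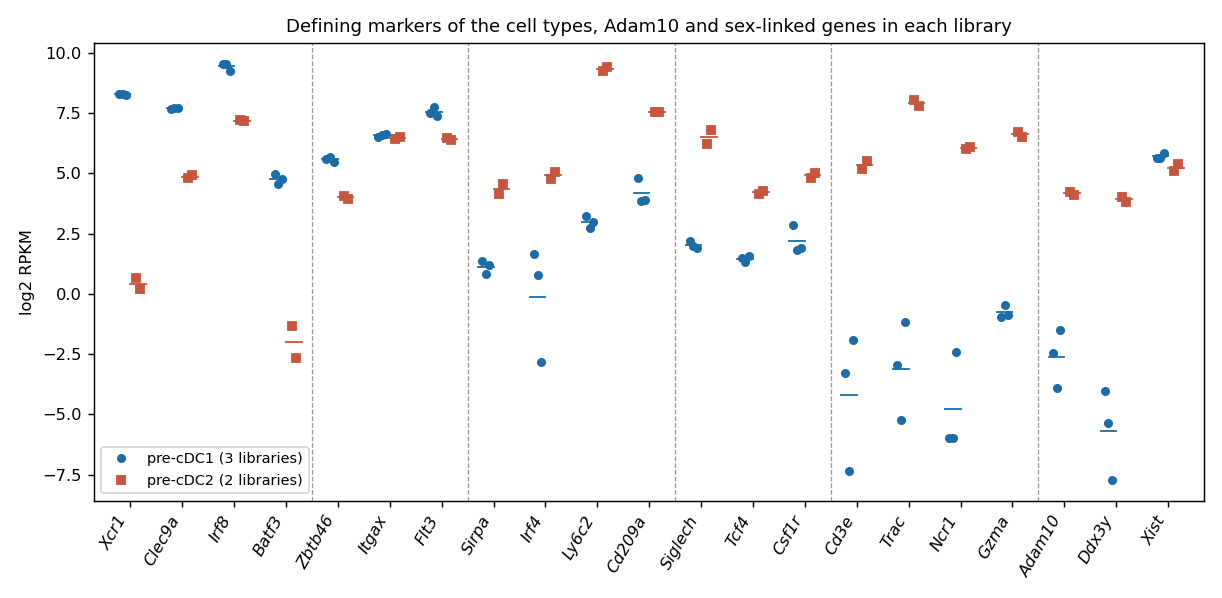
Level of 21 genes in each library, in log2 RPKM on the y axis, with circles for the 3 pre-cDC1 libraries, squares for the 2 pre-cDC2 libraries and short lines for group means. From left to right, dashed lines part cDC1 genes, shared cDC genes, cDC2 genes, plasmacytoid and monocyte genes, T and NK cell genes, and Adam10 with the sex-linked Ddx3y and Xist; Xcr1 lies above 8 only in pre-cDC1, while Trac and Ncr1 lie near 6 to 8 only in pre-cDC2.

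The start sites of 4 of these marker genes are printed, 1 each for cDC1, plasmacytoid, T and NK cells (250 bases before and 50 after the start, from RefSeq, build GRCm38.p6). Windows were searched on both strands for TGTGGT, the core letters bound by RUNX factors, for the AP-1 site TGANTCA and for the E-box CAGCTG, and capitals mark a match. The Xcr1 window is chr9:123861980-123862279 on the minus strand, and that of Cd3e is chr9:45009562-45009861 on the minus strand. Siglech has chr7:55767934-55768233 on the plus strand, and Ncr1 has chr7:4337465-4337764 on the plus strand.
Xcr1: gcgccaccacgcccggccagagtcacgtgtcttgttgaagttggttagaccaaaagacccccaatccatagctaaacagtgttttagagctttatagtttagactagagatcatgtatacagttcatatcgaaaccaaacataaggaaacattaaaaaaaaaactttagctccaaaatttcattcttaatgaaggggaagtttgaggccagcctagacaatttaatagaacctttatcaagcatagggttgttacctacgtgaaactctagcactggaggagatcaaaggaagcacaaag
Siglech: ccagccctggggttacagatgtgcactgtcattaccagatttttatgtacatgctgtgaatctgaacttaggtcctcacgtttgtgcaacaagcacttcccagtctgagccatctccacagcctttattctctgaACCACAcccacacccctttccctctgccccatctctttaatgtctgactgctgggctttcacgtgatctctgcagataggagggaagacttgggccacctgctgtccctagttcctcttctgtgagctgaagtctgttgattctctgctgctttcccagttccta
Cd3e: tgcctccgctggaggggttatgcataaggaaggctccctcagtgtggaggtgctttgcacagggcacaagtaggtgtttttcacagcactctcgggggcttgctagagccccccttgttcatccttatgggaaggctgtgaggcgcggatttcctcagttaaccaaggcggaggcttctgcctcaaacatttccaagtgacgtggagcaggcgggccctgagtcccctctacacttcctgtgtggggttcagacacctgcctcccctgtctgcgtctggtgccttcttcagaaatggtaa
Ncr1: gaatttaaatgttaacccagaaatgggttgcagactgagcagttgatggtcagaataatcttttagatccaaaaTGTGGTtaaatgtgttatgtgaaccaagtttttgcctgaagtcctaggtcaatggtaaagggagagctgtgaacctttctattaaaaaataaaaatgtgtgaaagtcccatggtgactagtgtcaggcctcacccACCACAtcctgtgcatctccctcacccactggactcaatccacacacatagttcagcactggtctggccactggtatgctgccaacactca

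The windows of Siglech and Ncr1 held the RUNX letters, at position 136 in Siglech and at positions 75 and 210 in Ncr1, counted from the 5′ end of the window. None of the 3 motifs was in the windows of Xcr1 and Cd3e. The RUNX letters were in 16.8% of all 32851 windows, in 13.3% of the 10850 windows of genes tested, in 18.7% of those of genes called higher and in 13.7% of those called lower. In the same order, the shares were 7.81%, 5.02%, 6.47% and 6.8% for AP-1, and 16.3%, 14.5%, 17.5% and 18% for the E-box. These are counts of letters in windows, not of bound sites. A composite ETS-IRF motif was searched as well and its shares are not reported here.

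Across the 13430 genes, 3270 were called (24.3%), of which 1697 were higher (12.6%) and 1573 lower (11.7%). The groups did not overlap for 7246 genes (54%). The median difference over all genes tested was 0.08, and the median size of a called difference was 2.09. Over 16-fold differences were called for 634 genes that were higher and for 296 that were lower. Among all called genes, 331 that were higher and 104 that were lower had no read in any library of the other group. For such genes the size of the difference depends on the small prior that the deposited values hold. Of the tested genes, 952 passed the filter only through the pre-cDC2 libraries and 824 only through the pre-cDC1 libraries, and 668 and 379 of these were called. Among the 11654 genes above 0 in both groups, 8.83% were higher and 10.2% lower. Calls were split 51.9% higher under the authors' scaling, 67.2% after scaling to total recovered reads, 41.5% after centring on library medians and 39.1% when 3 or more libraries had to exceed 1 log2 RPKM. Leaving out pre-cDC2 replicate 1 or 2 left 454 or 513 genes higher and 963 or 1123 lower, with the remaining library assumed to vary like the other group. Genes that passed the filter through pre-cDC2 alone cannot pass it with 1 such library, so fewer genes were tested there. Below, counts without 1 library are given as 2 numbers, for pre-cDC2 replicate 1 left out and then for replicate 2, unless another library is named.

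**Figure D2:**
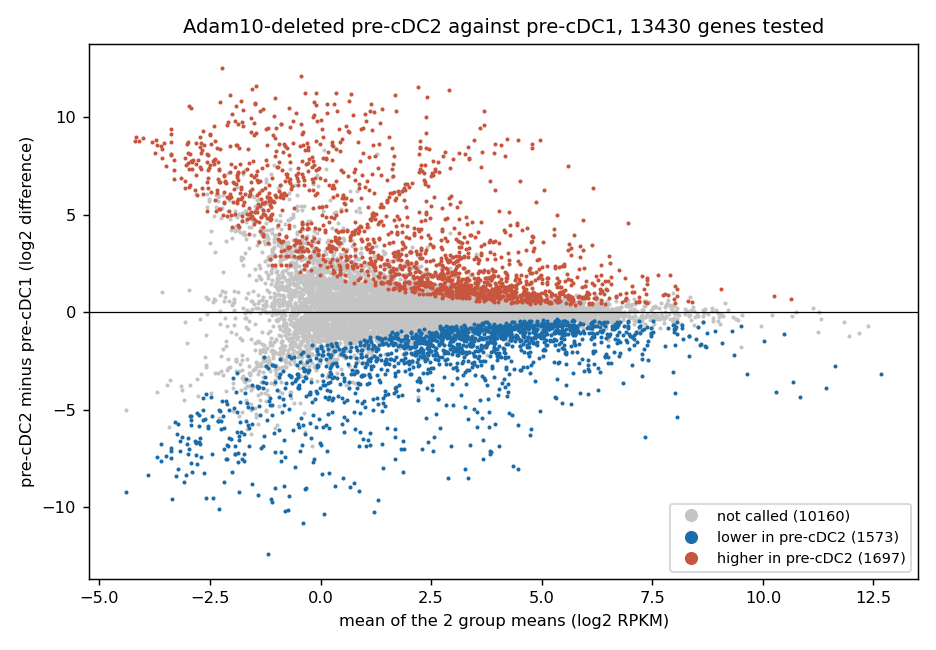
Difference between the groups (pre-cDC2 minus pre-cDC1, log2) against the mean of the group means (log2 RPKM), with each point 1 of the 13430 genes. Genes called higher (1697) lie above the line at 0, and genes called lower (1573) lie below it.

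The 12 largest falls, picked among called genes whose groups do not overlap, included Tlr3, Tlr11, Xcr1 and Rab7b of the cDC1 list. Tlr3, the endosomal receptor for double-stranded RNA (ENSMUSG00000031639.12, chromosome 8, 45395665 to 45411080), was at 7.08, 7.30 and 7.05 log2 RPKM against -0.71 and -2.02. Its difference was -8.51 ± 0.39 (limma adjusted p = 0.0001985). Gcsam, a signalling adaptor named for germinal centre B cells (chromosome 16, 45610380 to 45622867), was at 7.69, 7.62 and 7.41 against 0.03 and -1.86. Treml4, a receptor that binds dead cells (chromosome 17, 48264295 to 48275360), was at 7.46, 7.24 and 7.16 against -0.46 and -1.09. In each of these genes the pre-cDC1 libraries lay close together and far above both pre-cDC2 libraries. Dnase1l3, a secreted nuclease of dendritic cells and macrophages, differed by -7.53 ± 0.31. Rab7b, a small GTPase of late endosomes, differed by -7.26 ± 0.12, and Snx22, a sorting nexin, by -7.17 ± 0.24. Tlr11, the receptor for profilin of Toxoplasma, differed by -7.12 ± 0.39, and Havcr2, which encodes the inhibitory receptor TIM-3, by -6.85 ± 0.20. The others were Xcr1, Pianp at -7.14 ± 0.45, the septin gene Sept3 at -7.02 ± 0.90 and the lectin-like receptor Klri1 at -6.88 ± 0.22.

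The 12 largest rises were picked in the same way. They included Lck and Cd2 among T cell genes and Klrc1, Prf1, Il2rb, Ctsw and Nkg7 among NK and cytotoxic genes. Gimap3, a GTPase of lymphocyte survival (ENSMUSG00000039264.9, chromosome 6, 48764464 to 48770851), had 13, 0 and 12 reads in pre-cDC1 and 10445 and 8263 in pre-cDC2. Klrc1, the NKG2A chain of an inhibitory NK receptor (chromosome 6, 129666015 to 129678973), had 1, 3 and 6 reads against 3357 and 2870. Ccl5, a chemokine of activated T and NK cells (chromosome 11, 83525778 to 83530518), was at 0.72, -0.85 and 1.73 log2 RPKM against 9.59 and 9.18. Il2rb, the β chain shared by the IL-2 and IL-15 receptors, was at 0.17, 0.76 and -0.79 against 8.96 and 8.83 (8.85 ± 0.45, limma adjusted p = 0.0002631). Prf1, the pore-forming perforin (chromosome 10, 61297833 to 61304680), was at -3.56, -0.94 and -1.92 against 6.75 and 6.50. In all 5 genes both pre-cDC2 libraries stood far above every pre-cDC1 library. The rest of the 12 were Gimap4 at 9.61 ± 0.51, the adhesion receptor Cd2 at 9.17 ± 0.78, the cathepsin Ctsw at 8.63 ± 0.14, Lck at 8.62 ± 0.52, the transcription factor Ets1 at 8.45 ± 1.19, Nkg7 at 8.41 ± 0.15 and Ctla2a at 8.40 ± 0.56. Klrc1 has close relatives in the Klrc family and Gimap3 overlaps other GIMAP genes, so that reads between such copies are uncertain.

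**Figure D3:**
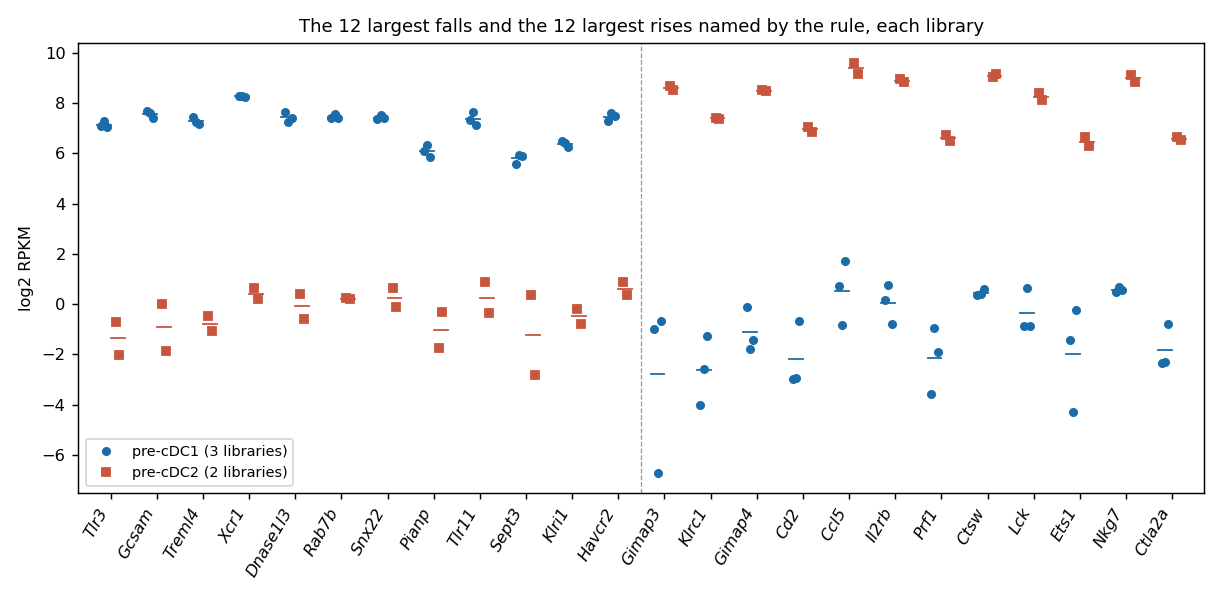
Level of the genes with the 12 largest falls (left of the dashed line) and the 12 largest rises (right) in each library, in log2 RPKM on the y axis. Circles are the 3 pre-cDC1 libraries, squares the 2 pre-cDC2 libraries and short lines the group means. All 24 genes were picked among called genes whose groups do not overlap.

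Genes of the cDC1 programme were lower almost throughout. All 30 genes of that list were tested, 5 of them through the filter in pre-cDC1 alone. Of the 30, 28 were lower and 1 was higher, with a median of -4.77 against 0.08 over all genes. Their share of reads was 2.87%, 3.08% and 2.85% in pre-cDC1 and 0.282% and 0.269% in pre-cDC2. Batf3, a transcription factor without which cDC1 do not form, was at 4.96, 4.54 and 4.76 log2 RPKM against -1.33 and -2.65. Cadm1, an adhesion molecule of cDC1, was at 5.37, 5.44 and 5.34 against -1.81 and -1.41, and Naaa, a lysosomal amidase, at 10.57, 10.57 and 10.48 against 3.99 and 4.26. Wdfy4, needed for cross-presentation, differed by -4.70 ± 0.17, and Itgae, the CD103 integrin chain, by -5.49 ± 0.38. Cd207, the lectin langerin, had 84, 120 and 99 reads against none, which is at least 34.4-fold lower. Irf8 was at 9.54, 9.56 and 9.27 against 7.22 and 7.16, a difference of -2.27 ± 0.15 (limma adjusted p = 0.00052), so that both groups stood at a high level. Cd8a, which encodes the CD8α chain of cDC1 and of T cells, was higher at 0.96 ± 0.13, beside the T cell gene Cd8b1 with 10, 15 and 6 reads against 3117 and 2897. Nfil3, a factor upstream of the cDC1 fate, overlapped between the groups (0.13 ± 0.52).

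Genes that all cDCs share were mostly lower as well. The core cDC list had 22 genes tested, 1 of them through the filter in pre-cDC1 alone. Of these 22, 18 were lower and 3 higher, with a median of -1.51. The shares were 81.8% lower and 13.6% higher, beside 11.7% and 12.6% over all genes. Zbtb46, the transcription factor that marks committed cDCs, was at 5.61, 5.66 and 5.47 log2 RPKM against 4.08 and 3.95. Kit, the stem cell factor receptor that early precursors carry, was at 5.75, 5.92 and 5.81 against 2.85 and 2.96. Flt3 was at 7.5, 7.74 and 7.39 against 6.46 and 6.39 (-1.12 ± 0.14, limma adjusted p = 0.0036). Anpep, the aminopeptidase CD13, differed by -5.13 ± 0.17, Slamf8, a myeloid receptor, by -4.34 ± 0.11, and Spi1, which encodes PU.1, by -0.86 ± 0.15. Itgax, the gene of CD11c whose promoter drives Cre in these mice, was at 6.50, 6.60 and 6.64 against 6.42 and 6.51 with overlapping groups (-0.12 ± 0.10, limma adjusted p = 0.48). The genes that were higher were Bcl11a (1.80 ± 0.18) and L3mbtl3 (2.38 ± 0.26), which act on gene regulation, and the kynurenine enzyme Kmo (0.65 ± 0.15). The Kmo call was lost without pre-cDC1 replicate 1 or 3 (adjusted p = 0.0681 and 0.052) and without either pre-cDC2 library (0.0857 and 0.161). Spi1 was not called without pre-cDC2 replicate 1 (0.0764).

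The cDC2 programme was higher on balance, with exceptions. Of its 30 genes, 28 were tested, 16 were higher and 5 lower, with a median of 2.22. The shares were 57.1% higher and 17.9% lower, beside 12.6% and 11.7% over all genes. Through the filter in pre-cDC2 alone came 4 of the 28, and in pre-cDC1 alone 2. Without 1 pre-cDC2 library, 10 or 10 were higher and 3 or 4 lower. Cd209a, a lectin of cDC2, was at 4.81, 3.86 and 3.89 log2 RPKM against 7.55 and 7.55, and Cd7, an immunoglobulin-like receptor that T and NK cells also carry, at 4.13, 3.37 and 3.21 against 8.38 and 8.19. Zeb2 was at -0.35, -1.65 and -0.88 against 3.65 and 3.47 (4.52 ± 0.51), and Cx3cr1, the fractalkine receptor, at 2.28, 2.46 and 1.25 against 5.37 and 5.83. Csf1r, the receptor for macrophage colony-stimulating factor, was at 2.87, 1.83 and 1.91 against 4.82 and 5.02. Klf4 differed by 0.89 ± 0.17 and Itgam, the CD11b chain, by 2.46 ± 0.46. Both lost the call without pre-cDC2 replicate 1 (limma adjusted p = 0.118 and 0.0771), Klf4 also without pre-cDC1 replicate 1 (0.0514) and Itgam without pre-cDC2 replicate 2 (0.0787). The 5 genes that were lower included Lyz2, the lysozyme of myeloid cells, at 10.24, 9.82 and 10.19 against 5.63 and 6.22, and the lectin-like receptor Clec12a (-2.24 ± 0.13). Also lower were the Notch pathway genes Rbpj and Notch2 and the chemokine receptor Ccr2 (-0.44 ± 0.10). The Ccr2 call was lost without any 1 library other than pre-cDC1 replicate 2. Clec10a, a lectin of cDC2, had 30, 0 and 22 reads against 459 and 354 and did not pass the test (6.19 ± 2.23, limma adjusted p = 0.11).

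Plasmacytoid dendritic cell genes were higher in most cases. All 28 were tested, of which 23 were higher and 2 lower, with a median of 3.47 (3.44 with genes at 0 reads at their bound), and 6 passed the filter only through pre-cDC2. The shares were 82.1% higher and 7.14% lower, beside 12.6% and 11.7% over all genes. With 1 pre-cDC2 library, 22 were tested, of which 14 or 14 were higher and 0 or 2 lower. Without pre-cDC1 replicate 2 or 3, 1 was lower. Tcf4, the E protein that maintains plasmacytoid cells, was at 1.48, 1.31 and 1.57 log2 RPKM against 4.16 and 4.25. Spib, an ETS factor, was at 2.36, 2.10 and 1.90 against 6.08 and 6.34, Runx2, a RUNX factor, at 1.90, 2.04 and 1.92 against 5.32 and 5.53, and Bst2, an antiviral membrane protein, at 5.34, 4.72 and 5.33 against 7.46 and 7.66. Klra17, a lectin-like receptor, differed by 4.49 ± 0.24, and the summed reads of the list took 0.0846% to 0.091% in pre-cDC1 and 0.494% and 0.558% in pre-cDC2. Irf7, the interferon regulatory factor of these cells, was not called (-0.20 ± 0.12), nor was the gut-homing receptor Ccr9 (-0.32 ± 0.27). Dntt, the terminal transferase of lymphoid progenitors, was lower at 66, 215 and 130 reads against 7 and 14, as was Tlr9, the receptor for unmethylated DNA, at -1.31 ± 0.29. Dntt was not called without pre-cDC2 replicate 1 (limma adjusted p = 0.0549). Tlr9 was not called without that library (0.122) or without pre-cDC1 replicate 2 (0.0558) or 3 (0.0622).

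Genes of T cells and NK cells parted the groups over almost their whole lists. Of 30 T cell genes, 29 were higher, and 23 of them passed the filter only through the pre-cDC2 libraries and so had to differ. Their reads took 0.00277% to 0.00367% of each pre-cDC1 library and 0.723% and 0.665% of the pre-cDC2 libraries. Tcf7, a transcription factor of T cells, had 2, 2 and 2 reads against 2896 and 2751, and Lef1, its relative, had none against 1381 and 1276, which is at least 433-fold higher. Zap70, the kinase of the T cell receptor, had 1, 0 and 1 reads against 1926 and 1570, and Cd5, a coreceptor, was at 0.73, 0.13 and 0.29 log2 RPKM against 5.80 and 5.79. All 28 NK and cytotoxic genes were higher, 19 of them through the filter in pre-cDC2 alone, and their summed share was 0.0265% to 0.03% in pre-cDC1 against 0.694% and 0.631%. Gzma, which encodes granzyme A, had 5, 7 and 4 reads against 1050 and 810. Klrd1, the CD94 chain, was not confined to pre-cDC2, at 4.06, 4.0 and 4.01 log2 RPKM against 7.25 and 7.40, and Klrk1, the NKG2D receptor, was at 5.10, 5.29 and 5.10 against 6.17 and 5.92. All 8 GIMAP genes, GTPases of lymphocytes, were higher, 6 of them through the filter in pre-cDC2 alone. Similarly, 130 of 139 tested T cell receptor segments were higher, 126 of these 139 through the filter in pre-cDC2 alone. Camk4, a calcium-dependent kinase, was the T cell gene that was not called (12, 0 and 12 reads against 305 and 259, limma adjusted p = 0.069). On leaving out 1 pre-cDC2 library, 7 T cell genes were tested and 5 or 5 were higher, 9 NK genes were tested and 7 or 8 were higher, and 2 GIMAP genes were tested and both were higher. Of the receptor segments 13 were then tested and 5 or 5 were higher. Klrk1 was not called without pre-cDC2 replicate 1 (limma adjusted p = 0.0642).

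Of the marker lists of further cell types, the innate lymphoid list had 15 genes, of which 5 were tested and 5 were higher, 3 of them through the filter in pre-cDC2 alone. Il18r1, the IL-18 receptor, had 17, 21 and 13 reads against 1016 and 864. In the fits with 1 pre-cDC2 library, 2 were tested and 0 or 0 were called by limma, both at an unadjusted p under 0.05. The B cell list had 9 of 20 identifiers tested, 3 higher and 2 lower, or 1 lower without pre-cDC2 replicate 1. Beside Igkc, Cd72, a B cell coreceptor, had 21, 21 and 31 reads against 684 and 420, whereas the B cell scaffold Bank1 was lower (-2.81 ± 0.53) and lost its call without that library (limma adjusted p = 0.0779). The B cell shares in the main fit were 33.3% higher and 22.2% lower, beside 12.6% and 11.7% over all genes. Pax5, the master factor of B cells, had no read in these 5 libraries. The monocyte list had 15 of 22 tested, 4 higher and 6 lower (2 or 2 and 4 or 4 without 1 pre-cDC2 library). The monocyte shares in the main fit were 26.7% higher and 40% lower. The defining monocyte markers Csf1r and Ly6c2 were both called higher, at 2.72 ± 0.35 and 6.35 ± 0.18. However, Ly6C also names the pre-cDC2 libraries, and Csf1r is also described above under the cDC2 programme. List members Plbd1 and Mpeg1, both lysosomal proteins that cDC1 also express, were lower at -3.17 ± 0.17 and -2.18 ± 0.16. Treml4 and Lyz2, also of this list, were lower at -8.06 and -4.16. Fcgr3, an Fc receptor, was higher at 2.80 ± 0.58. Its call was lost without pre-cDC1 replicate 3 (limma adjusted p = 0.0517) or without either pre-cDC2 library (0.115 and 0.13). Of 7 tested neutrophil genes limma called 0, voom on the recovered reads called 0, and 0 had an unadjusted p under 0.05. Of 9 tested red pulp macrophage genes 2 were lower, Cd68 (-1.69 ± 0.18) and the transferrin gene Trf (-2.05 ± 0.26), or 22.2% beside 11.7% over all genes. Of 11 tested erythroid genes the carbonic anhydrase Car2 alone was higher (1.28 ± 0.26), or 9.09% beside 12.6% over all genes. Car2 lost its call without pre-cDC1 replicate 2 (limma adjusted p = 0.051) or either pre-cDC2 library.

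**Figure D4:**
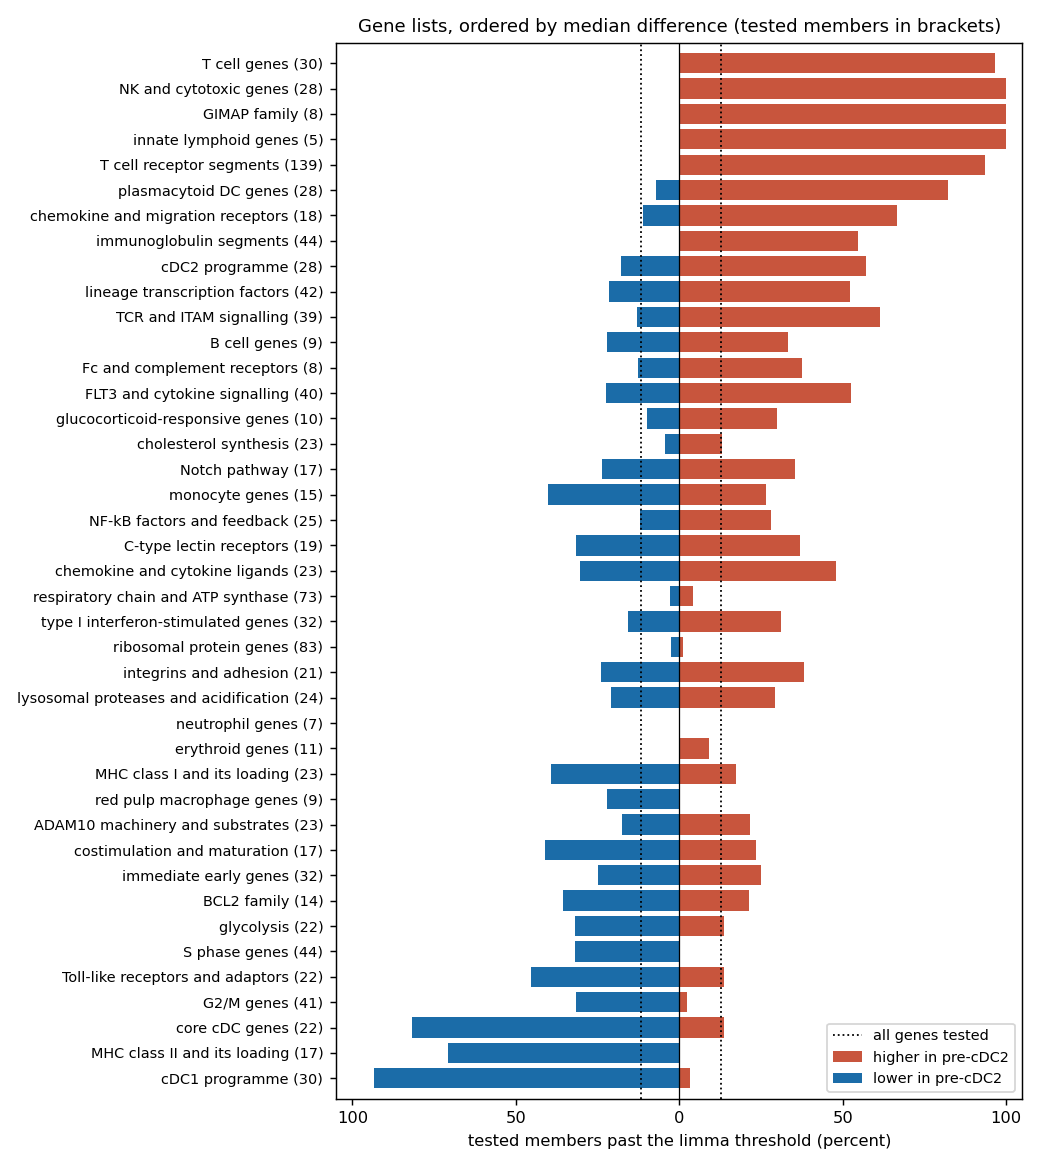
Share of tested members of each gene list past the limma threshold, in percent, with bars to the right for members higher in pre-cDC2 and to the left for members lower, ordered by the median difference and with the number tested in brackets. Dotted lines give the shares over all genes tested (12.6% higher and 11.7% lower); the T cell, NK cell and GIMAP bars fill nearly the whole right side and the cDC1 bar nearly the whole left side.

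Transcription factors that direct lineage choice were called in both directions. Of 42 tested, 9 of them through the filter in pre-cDC2 alone, 22 were higher and 9 lower, with a median of 1.20. The shares were 52.4% higher and 21.4% lower, beside 12.6% and 11.7% over all genes. When 1 pre-cDC2 library was dropped, 33 were tested, of which 8 or 9 were higher and 8 or 9 lower. Besides Batf3 and Irf8, Id2, the inhibitor of E proteins in cDC1, was lower at 8.63, 8.28 and 8.49 log2 RPKM against 6.29 and 5.88. Mycl, a MYC relative of cDCs, was at 6.50, 6.75 and 6.37 against 4.17 and 3.82, while Myc was higher at 5.04, 5.21 and 4.68 against 6.44 and 6.26. Bcl6, a repressor with a role in cDC1, differed by -1.66 ± 0.20 and Etv6, an ETS repressor, by -1.30 ± 0.16. Among those that were higher, Tbx21, the factor T-bet, had 33, 5 and 10 reads against 1677 and 1873, and Gata3, a factor of T and innate lymphoid cells, had 0, 1 and 1 against 1010 and 727. Satb1, a chromatin organizer of thymocytes, was at -0.12, 0.07 and 0.13 against 3.57 and 3.71. Runx3 was higher by 1.26 ± 0.16, and Ikzf1 and Nr4a1 were not called (0.80 ± 0.23 and 0.61 ± 0.18, both limma adjusted p = 0.06). Relb, an NF-kB subunit of cDC2, was at 3.97, 4.14 and 3.89 against 4.32 and 4.31 and was not called either.

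Most genes for presentation on MHC class II were lower. All 17 were tested, 12 were lower and 5 not called, with a median of -2.93, and they took 7.78%, 5.59% and 6.91% of the reads in pre-cDC1 and 0.876% and 0.852% in pre-cDC2. Cd74, the invariant chain and the most abundant transcript of pre-cDC1, was at 14.55, 13.999 and 14.22 log2 RPKM against 11.15 and 10.996. H2-Ab1, a β chain of the class II molecule, was at 13.65, 13.09 and 13.39 against 9.57 and 9.39, and H2-Eb1 at 13.26, 12.72 and 13.07 against 8.54 and 8.79. Ciita, the transactivator of class II genes, was at 7.81, 7.97 and 7.79 against 4.81 and 4.77 (-3.07 ± 0.11, limma adjusted p = 0.00012). The regulators of peptide exchange H2-Oa and H2-Ob differed by -3.72 ± 0.23 and -4.14 ± 0.17, and March1, a ubiquitin ligase for class II, by -2.02 ± 0.13. The promoter-binding factors Rfx5 (-0.84 ± 0.31), Rfxank (0.95 ± 0.34) and Rfxap (-2.38 ± 0.97) were not called. Nor were the lysosomal enzymes Ctss (-0.17 ± 0.16) and Ifi30 (0.25 ± 0.29), which stood near 8 to 9 log2 RPKM in both groups.

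Class I genes were called in both directions. Of 23 tested, 4 were higher and 9 lower, with a median of -0.08. These are 17.4% and 39.1%, beside 12.6% and 11.7% over all genes. H2-K1 was at 10.31, 10.29 and 10.25 log2 RPKM against 10.98 and 10.96 (0.68 ± 0.19, limma adjusted p = 0.04944), and this call was lost on leaving out any 1 of the 5 libraries (adjusted p = 0.0687 to 0.133). B2m, the class I light chain, overlapped between the groups at 11.12, 10.67 and 11.34 against 11.22 and 11.24. H2-D1 was at 10.87, 10.75 and 10.65 against 10.80 and 10.70, with a difference of -0.00 ± 0.21. The peptide transporter genes Tap1 and Tap2 were lower (-1.53 ± 0.13 and -1.07 ± 0.12). Lower too were the immunoproteasome subunit Psmb9 (-2.02 ± 0.18) and the loading chaperones Calr (-1.51 ± 0.18) and Pdia3 (-1.37 ± 0.17). H2-Q7 was called higher (1.65 ± 0.20), but reads between near-identical class I copies are uncertain. After leaving out either pre-cDC2 library, 1 or 1 class I gene was higher and 5 or 7 were lower, and without pre-cDC1 replicate 3 those counts were 2 and 7.

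**Figure D5:**
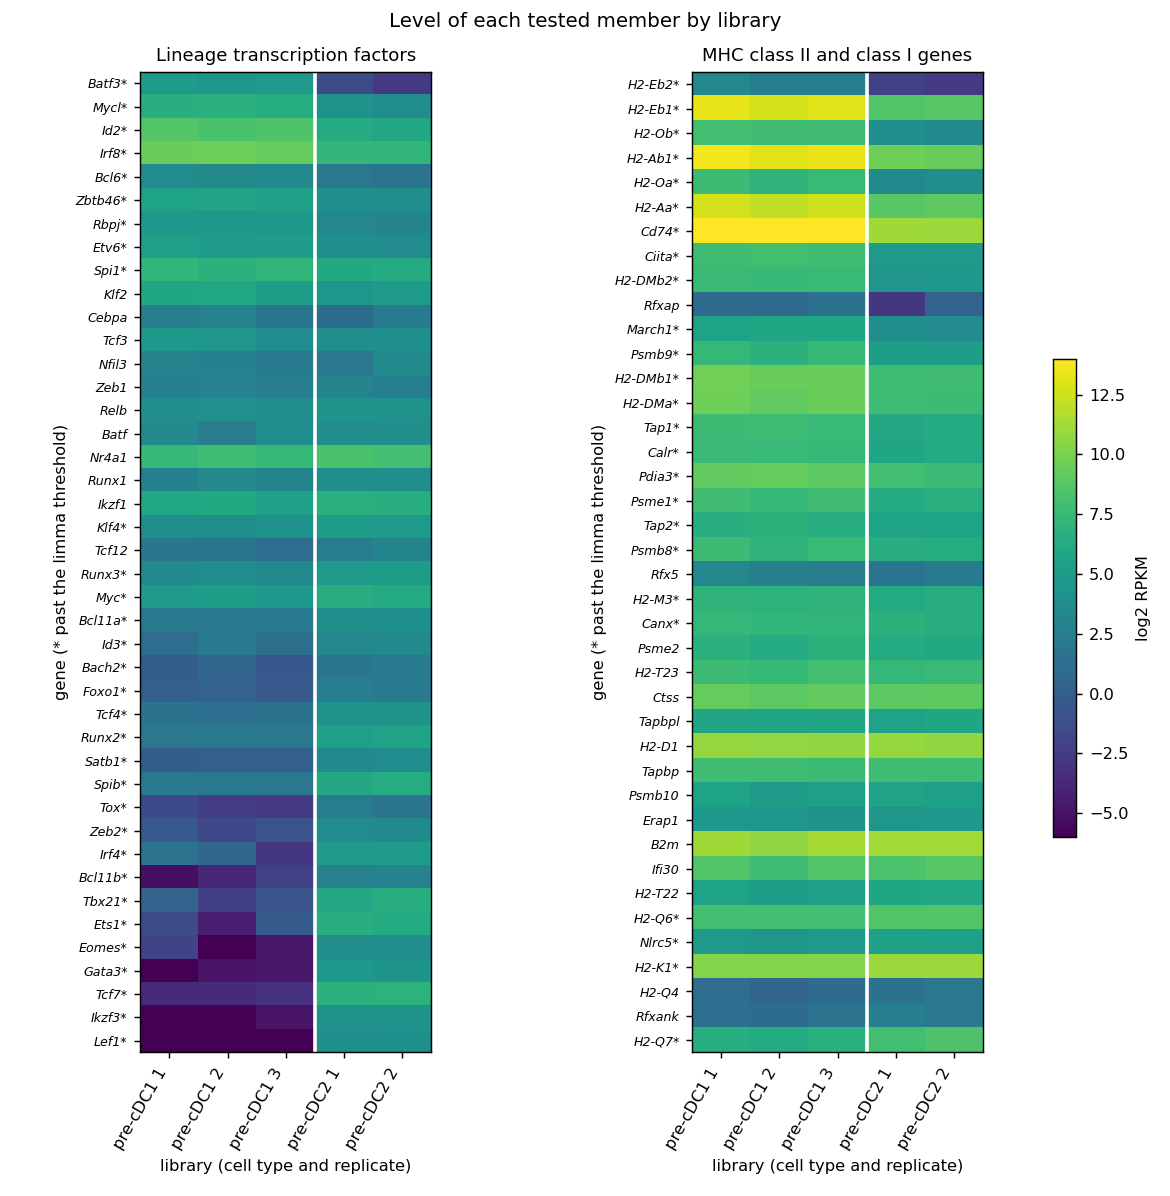
Level of each tested lineage transcription factor (left) and each tested MHC class I or II gene (right) in the 5 libraries, in log2 RPKM by colour, ordered by difference, with a star for genes past the limma threshold. Batf3 and the class II genes are bright in the 3 pre-cDC1 columns and darker in the 2 pre-cDC2 columns, and Lef1, Tcf7 and Gata3 show the reverse.

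Costimulatory genes were called in both directions (17 tested, 4 higher, 7 lower, or 2 higher and 5 lower without either pre-cDC2 library). The costimulatory shares in the main fit were 23.5% higher and 41.2% lower, beside 12.6% and 11.7% over all genes. Through the filter in pre-cDC2 alone came 2 of the 17. Cd86, a ligand of CD28, was at 6.92, 6.89 and 6.77 log2 RPKM against 1.69 and 1.63 (-5.19 ± 0.11, limma adjusted p = 3.9e-05), and Cd80 at 3.29, 3.05 and 3.3 against 0.65 and 0.71. Cd83, a maturation marker, differed by -2.42 ± 0.11. Tnfsf9, the ligand of 4-1BB, was higher at 4.01, 3.66 and 3.93 against 7.40 and 7.37, and Cd274, the gene of PD-L1, had 63, 37 and 11 reads against 365 and 362. Cd274 lost its call without pre-cDC2 replicate 1 or 2 (limma adjusted p = 0.0611 and 0.0637). Cd40, the receptor through which T cells license dendritic cells, overlapped (-0.41 ± 0.30).

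Receptors that steer cells to tissues were mostly higher. Of 18 tested, 3 of them through the filter in pre-cDC2 alone, 12 were higher (66.7%) and 2 lower (11.1%), with a median of 2.67. The 2 lower genes were Xcr1 and Ccr2. With 1 pre-cDC2 library, 15 were tested, of which 7 or 6 were higher and 1 or 1 lower. Without pre-cDC1 replicate 1 or 3, 1 was lower. Ccr7, the receptor for lymph node entry that naive T cells and mature dendritic cells share, had 23, 43 and 16 reads against 2774 and 2592. S1pr1, the receptor for tissue exit, had 14, 20 and 8 reads against 2547 and 1826, and S1pr5, its relative in NK cells, had none against 232 and 172, at least 65.4-fold higher. Cxcr5, the follicle-homing receptor, also had none against 229 and 304. Gpr183, an oxysterol receptor that positions cDC2 in the spleen, was at 4.41, 3.87 and 4.08 log2 RPKM against 6.37 and 6.56. Cxcr3 stood high in both groups at 7.5, 7.06 and 7.29 against 6.77 and 6.96 and was not called. Among 21 tested integrins and adhesion genes, 8 were higher and 5 lower (3 or 3 and 2 or 2 without 1 pre-cDC2 library, and 3 lower without any 1 of the pre-cDC1 libraries). The shares of these 21 genes were 38.1% higher and 23.8% lower, beside 12.6% and 11.7% over all genes. Itga2, the collagen receptor of NK cells, had no read against 460 and 235, and Itga8, an RGD-binding integrin chain, had 545, 743 and 480 reads against 1 and 14.

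Ligands for other cells were called in both directions (23 tested, 11 higher, 7 lower). These are 47.8% and 30.4%, beside 12.6% and 11.7% over all genes. Through the filter in pre-cDC2 alone came 4 of the 23, and in pre-cDC1 alone 3. On leaving out 1 pre-cDC2 library, 19 were tested, of which 6 or 6 were higher and 6 or 6 lower. Cxcl16, a membrane chemokine that ADAM10 can shed, was at 5.94, 5.87 and 6.07 log2 RPKM against 0.76 and 1.24, and its receptor gene Cxcr6 had 25, 1 and 20 reads against 1469 and 1022. The Cxcr6 call was lost without either pre-cDC2 library (limma adjusted p = 0.0691 and 0.0547). Il18, an inflammasome cytokine, had 337, 238 and 267 reads against 12 and 13, and Il15, a survival factor of NK cells, had 356, 184 and 250 against 18 and 8. Il12b, the p40 chain of IL-12, had 9, 31 and 23 reads against none, at least 7.26-fold lower. Its call was lost without either pre-cDC2 library (limma adjusted p = 0.172 and 0.132). Ifng had none against 186 and 184, at least 60.4-fold higher, and Xcl1, the ligand of XCR1, had 0, 0 and 1 against 406 and 313. Ccl3 and Ccl4, chemokines of many activated leukocytes, were higher by 2.31 ± 0.12 and 2.18 ± 0.21. Tnf was near 3 log2 RPKM in both groups and overlapped (0.21 ± 0.22).

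Toll-like receptors and their adaptors were lower more often than higher (22 tested, 3 higher, 10 lower, median -0.76). These are 13.6% and 45.5%, beside 12.6% and 11.7% over all genes. Through the filter in pre-cDC2 alone came 2 of the 22, and in pre-cDC1 alone 2. In the fits with 1 pre-cDC2 library, 1 or 1 was higher and 8 or 11 lower. Beside Tlr3 and Tlr11, Tlr13, a sensor of bacterial ribosomal RNA, was at 5.45, 6.05 and 5.81 log2 RPKM against -0.15 and -1.14, and Tlr12, the partner of TLR11, at 5.0, 5.06 and 4.93 against 3.48 and 3.68. Unc93b1, which carries nucleic acid sensors to endosomes, was at 9.39, 9.55 and 9.33 against 7.71 and 7.75. Tlr7, the sensor of single-stranded RNA, went the other way, with 1, 7 and 1 reads against 107 and 114, and Tlr5, the flagellin receptor, had 2, 0 and 1 against 71 and 46. Tlr2 and Myd88 overlapped between the groups (-0.13 ± 0.22 and -0.22 ± 0.18). Of 19 tested C-type lectin receptors, 3 of them through the filter in pre-cDC1 alone, 7 were higher (36.8%) and 6 lower (31.6%). That count of higher genes was 3 or 3 without 1 pre-cDC2 library and 4 without pre-cDC1 replicate 1 or 3. Clec1a, a lectin of endothelial and dendritic cells, was lower at 5.0, 5.37 and 5.12 against 2.91 and 2.79, and Ly75, which encodes DEC-205, was lower at 4.24, 4.28 and 3.96 against 3.11 and 2.53. Of 8 tested Fc and complement receptors 3 were higher (37.5%) and 1 lower (12.5%), led by the signalling chain Fcer1g at 5.80, 5.66 and 6.52 against 7.92 and 7.62. Without 1 pre-cDC2 library, 1 or 1 of these was higher and 0 or 0 lower.

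The FLT3 pathway and related cytokine receptors had 21 of 40 tested genes higher and 9 lower. These are 52.5% and 22.5%, beside 12.6% and 11.7% over all genes. Through the filter in pre-cDC2 alone came 4 of the 40. When 1 pre-cDC2 library was dropped, 36 were tested, of which 12 or 12 were higher and 6 or 6 lower. Flt3l, which encodes the ligand of FLT3, was itself higher, at 0.47, -0.15 and 0.30 log2 RPKM against 2.67 and 2.66 (2.46 ± 0.36, limma adjusted p = 0.0064). That call was lost when pre-cDC2 replicate 1 (adjusted p = 0.0573) or 2 (0.0501) was left out, with the difference at 2.46 in both cases. Csf2ra, the α chain of the GM-CSF receptor, was at 7.61, 7.61 and 7.46 against 5.32 and 5.26. Il2rg, the γ chain common to several interleukin receptors, was at 4.37, 4.41 and 4.22 against 7.57 and 7.5, Il21r, the IL-21 receptor, at 1.35, 1.35 and 1.21 against 5.93 and 5.94, and Jak1, the kinase they use, at 5.20, 5.39 and 5.25 against 7.96 and 7.66. Stat4, which acts downstream of IL-12, had 28, 2 and 14 reads against 1283 and 879. Of the SOCS feedback inhibitors, Socs3 was at 1.97, 2.65 and 2.25 against 5.39 and 5.34 and Socs2 at 0, 0 and 0 reads against 115 and 89. Stat3 and Jak2, which act below many of these receptors, overlapped (0.17 ± 0.16 and -0.06 ± 0.16).

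Other genes around ADAM10 and Notch were called in both directions. The groups share the genotype label but not the level of Adam10. Of 23 tested genes of the ADAM10 machinery and its substrates, 5 were higher and 4 lower, with a median of -0.14. These are 21.7% and 17.4%, beside 12.6% and 11.7% over all genes. Through the filter in pre-cDC2 alone came 2 of the 23, and in pre-cDC1 alone 1. After leaving out either pre-cDC2 library, 2 or 3 were higher and 4 or 5 lower. Among the tetraspanins that escort ADAM10, Tspan33 had 438, 576 and 375 reads against 21 and 18, whereas Tspan14 was higher at 4.90, 4.42 and 4.80 log2 RPKM against 5.80 and 6.17. Adam8, another metalloprotease, was at 6.77, 6.86 and 6.60 against 1.60 and 0.13, and Frmd8, which stabilizes ADAM17 complexes, was higher by 1.53 ± 0.18. The γ-secretase genes Ncstn (0.47 ± 0.23) and Aph1a (-0.14 ± 0.29) were not called. Of 17 tested Notch pathway genes, 6 were higher and 4 lower (2 or 3 and 3 or 4 without 1 pre-cDC2 library). The Notch shares were 35.3% higher and 23.5% lower, and 2 of the 17 passed the filter only through pre-cDC2 and 2 only through pre-cDC1. Rbpj, the nuclear effector of Notch, was at 4.70, 4.64 and 4.62 against 3.24 and 3.11. Notch2, the receptor that cDC2 of the spleen need, was at 5.16, 4.88 and 5.43 against 3.84 and 4.16. Without pre-cDC2 replicate 1 the Notch2 difference was -0.99 and was not called (limma adjusted p = 0.074). Notch4, an endothelial Notch receptor, had 1212, 1251 and 323 reads against 12 and 4. Dtx1, a Notch target in lymphocytes, had 0, 0 and 1 reads against 461 and 314, and the fringe enzyme gene Lfng, whose product modifies Notch, was higher by 1.37 ± 0.14. The canonical target Hes1 had 5, 0 and 0 reads against 0 and 1 and was not tested.

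Antigen receptor signalling genes were higher in 24 and lower in 5 of 39 tested, with a median of 1.18, and 10 passed the filter through pre-cDC2 alone. The shares were 61.5% higher and 12.8% lower, beside 12.6% and 11.7% over all genes. With 1 pre-cDC2 library, 29 were tested, of which 7 or 8 were higher and 4 or 4 lower. Without pre-cDC1 replicate 1 or 2, 3 were lower. Prkcq, the protein kinase C of T cells, had 16, 15 and 12 reads against 3391 and 2434. Hcst, the DAP10 adaptor of NK receptors, was at 1.93, 2.54 and 2.37 log2 RPKM against 5.73 and 5.90, and Fgr, a SRC-family kinase of myeloid and NK cells, at 4.45, 4.11 and 4.14 against 6.48 and 6.61. The genes that were lower were kinases and exchange factors of myeloid and B cells, among them Btk at 6.10, 5.98 and 6.05 against 4.13 and 4.09. Syk, a kinase used by many such receptors, was near 4 in both groups (0.30 ± 0.14) and Vav1 near 6.6 with overlap (-0.08 ± 0.12).

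Cell-cycle genes were lower where they were called, with Racgap1 as the exception. Of 41 tested G2/M genes, 13 were lower (31.7%) and 1 higher (2.44%), with a median of -1.06. For S phase, 44 genes were tested and 14 were lower (31.8%), with a median of -0.62. Over all genes, 11.7% were lower and 12.6% higher. The G2/M list took 0.123%, 0.129% and 0.134% of reads in pre-cDC1 and 0.103% and 0.137% in pre-cDC2, so its summed reads overlapped between the groups. The S phase list took 0.229%, 0.257% and 0.2475% against 0.206% and 0.199%. Through the filter in pre-cDC1 alone came 3 G2/M genes and 1 S phase gene. Mki67, the proliferation antigen, was at 3.15, 3.26 and 3.51 log2 RPKM against 1.51 and 2.22, and Kif23, a cytokinesis motor, at 3.17, 3.12 and 2.94 against 0.83 and 0.66. Nusap1, a spindle protein, was at 2.92, 3.05 and 3.07 against 1.51 and 1.51, and Cdk1 at 2.68, 2.25 and 2.48 against -0.42 and 0.55. Uhrf1, which maintains DNA methylation at replication, differed by -2.01 ± 0.18, Mcm5, a subunit of the replicative helicase, by -1.25 ± 0.14, and Rrm2, a ribonucleotide reductase subunit, by -1.55 ± 0.19. Racgap1, a regulator of cytokinesis, was higher at 3.78, 3.90 and 3.87 against 5.35 and 5.53. Pcna was not called (-0.47 ± 0.15, limma adjusted p = 0.083). Without pre-cDC2 replicate 1, 5 G2/M and 8 S phase genes were lower, and without pre-cDC1 replicate 1 or 2, 7 or 8 G2/M genes were. Mki67 was not called without pre-cDC1 replicate 3 (limma adjusted p = 0.0535) or pre-cDC2 replicate 1 (0.0703).

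Genes of the early response and of inflammation were split. Of 32 tested immediate early genes, 8 were higher and 8 lower, 25% each beside 12.6% and 11.7% over all genes. Rgs2, a regulator of G protein signals, was at 7.68, 7.6 and 7.64 log2 RPKM against 5.14 and 5.54, and Fos at 9.70, 9.88 and 9.78 against 8.72 and 8.89. Cd69, an early activation antigen that also marks resident lymphocytes, was at 1.56, 2.84 and 2.98 against 6.65 and 6.68, and Ier2 at 6.79, 6.70 and 6.68 against 7.98 and 7.84. Jun (0.20 ± 0.14) and Egr1 (-0.22 ± 0.14) were not called. On leaving out 1 pre-cDC2 library, 4 or 5 were higher and 3 or 5 lower, and without pre-cDC1 replicate 3, 5 were lower.

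Of 25 tested genes of NF-kB, the family of inflammatory transcription factors, 7 were higher and 3 lower. These are 28% and 12%, beside 12.6% and 11.7% over all genes. Without 1 pre-cDC2 library, 3 or 3 were higher and 1 or 0 lower, and without pre-cDC1 replicate 1, 0 were lower. Nfkbiz, an atypical inhibitor, was at 4.71, 4.83 and 4.66 against 6.43 and 6.48, Tnfaip3, which encodes A20, at 4.0, 4.67 and 4.19 against 6.74 and 6.75, and Chuk, a subunit of the kinase complex, differed by -1.18 ± 0.22. Its call was lost without pre-cDC1 replicate 1 (limma adjusted p = 0.0511), pre-cDC2 replicate 1 (0.0638) or pre-cDC2 replicate 2 (0.0637). Of 32 tested interferon-stimulated genes 10 were higher (31.2%) and 5 lower (15.6%), with a median of 0.09. After leaving out either pre-cDC2 library, 5 or 4 were higher and 2 or 1 lower, and without pre-cDC1 replicate 1, 2 or 3 the lower count was 2, 3 or 2. Oas3, a sensor of double-stranded RNA, was higher by 2.21 ± 0.30 and Bst2 by 2.43 ± 0.22, while Isg15 (-0.27 ± 0.46), Rsad2 (0.10 ± 0.56) and Irf7 were not called. Of 10 tested glucocorticoid-responsive genes 3 were higher (30%) and 1 lower (10%), with the repressor Bhlhe40 at 3.24, 2.54 and 3.11 against 6.47 and 6.61.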

How the data were processed

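RNA of sorted spleen populations was extracted with PicoPure, and libraries were made from 2 ng of total RNA with SMARTSeq v2 and sequenced paired-end on a HiSeq, per the labels' protocols. Per the submitters' processing notes, STAR 2.3, featureCounts 1.5.0, edgeR, R 3.3.3 and GRCm38 were used. The authors deposited log2 RPKM values, which already hold a small added prior. Not given in the sources used here are the annotation release, the version of edgeR, the strand setting and the unit of counting (reads or fragments). Without a known strand setting, overlapping and antisense genes cannot be told apart.

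Groups were taken from the labels, and genes above 0 in at least 2 of the 5 libraries (13430) were fitted with limma 3.58.1 (2 group means, eBayes with a trend, Benjamini-Hochberg over all of them, 3 residual degrees of freedom, no further pseudocount). Reads were recovered from the deposited values with GENCODE mouse release 21 gene lengths, which matched 49035 of 52550 identifiers. They came out whole within 0.001 for 52546 genes, at 7862441 to 11357798 reads per library. A fold against a group at 0 reads was computed against a floor of 3 reads per library, and other ratios of few reads carry exact 95% intervals. Reads without molecular identifiers are not independent molecules, and both floors and intervals therefore reflect only counting error. Fits were tested on simulated data. Names shared by several identifiers numbered 90.

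Members and lists were chosen with earlier results of these data known. Named genes are the 12 largest rises and 12 largest falls among called genes (groups not overlapping, mean of the group means at least 2, without predicted genes and receptor segments), up to 5 members of each list with the smallest p, a fixed set of 40 genes and the 10 most abundant genes of each group. Further members were named after their values were seen. A set of 14 other settings changed the filter, scale, normalization, variance model, pairing and libraries, and 2 were added after seeing the data. Wild-type libraries were not used here. A few genes are not reported here.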

Additional observations from a re-analysis of the deposited data

How the results depend on the processing

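Calls were counted again under 14 other settings and under 2 more chosen after seeing the data (a voom fit of the reads, and scaling by each library's read total). The main fit gave 1697 genes higher and 1573 lower. Asking 3 or more libraries to exceed 1 log2 RPKM left 963 higher and 1498 lower among 9720 genes tested. A gene above that level only in the 2 pre-cDC2 libraries cannot pass this filter, while one above it only in the 3 pre-cDC1 libraries can. Leaving out 1 library gave 454 to 1620 higher and 963 to 1290 lower, the lowest without pre-cDC2 replicate 1, where the spread of the other group stands in for that of the lone library. Quantile normalization turned mt-Nd1 to 1.66 and H2-D1 to 1.05, both near 0 and not called as reported, and the cause was not tested. Over all genes tested the median difference was 0.08, against -0.08 after quantile normalization, -0.09 after centring and 0.34 after scaling to total reads. Of 4884 values of 317 named genes under these settings, 4608 kept their direction and side of the threshold. The replicate block left 1304 higher and 1120 lower with 1 residual degree of freedom, and it ended the call of 26 named genes, H2-K1 among them (adjusted p = 0.267). The replicate numbers were not used as pairs in the main fit, since the labels state no design with a block. Deviations of same-numbered libraries correlated at 0.0287 and -0.0022. Deviations of the 2 pre-cDC2 libraries mirror each other by construction (correlation -1), so these values cannot decide whether the numbers are pairs. Low reads limit the genes near the floor, and with 2 libraries in 1 group their number limits the precision.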

Other observations

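Genes of survival and metabolism were called in both directions. Of 14 tested BCL2 family genes, which set the threshold of apoptosis, 3 were higher and 5 lower. These are 21.4% and 35.7%, beside 12.6% and 11.7% over all genes. Bcl2, an inhibitor of cell death, was at 1.29, 1.24 and 1.65 log2 RPKM against 5.38 and 5.32 (3.96 ± 0.20, limma adjusted p = 0.00026), and Bcl2l1, which encodes BCL-XL, at 1.30, 2.02 and 1.99 against 4.34 and 4.40. Bcl2a1d was lower by a difference of -4.49 ± 0.27, but it has near-identical copies between which reads are uncertain. Of 22 tested glycolysis genes 3 were higher and 7 lower, or 2 and 4 lower without pre-cDC2 replicate 1 and 2, and 4 lower without pre-cDC1 replicate 1 or 2. The glycolysis shares in the main fit were 13.6% higher and 31.8% lower. Hk3, the hexokinase of myeloid cells, was at 5.27, 5.62 and 5.50 against 1.81 and 2.17, and Slc2a3, the glucose transporter GLUT3, at 1.68, 1.56 and 1.80 against 4.51 and 4.65. In the lysosome list, 7 of 24 were higher and 5 lower (4 higher without pre-cDC2 replicate 2). The lysosome shares in the main fit were 29.2% higher and 20.8% lower. The protease gene Ctsd was at 3.02, 3.40 and 3.07 against 7.42 and 7.40, whereas Psap, which encodes the saposins, was at 13.001, 13.17 and 12.87 against 10.28 and 10.24.

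The lists of ribosomal protein and respiratory chain genes held few calls beside the 24.3% over all genes. Cholesterol synthesis genes were called higher at 13% and lower at 4.35%, beside 12.6% and 11.7% over all genes. Of 83 tested ribosomal protein genes 1 was higher and 2 were lower, and these 3 were Rps3a copies between which reads are uncertain. Of 73 tested genes of the respiratory chain and ATP synthase 3 were higher and 2 lower. Cox6a2, a cytochrome oxidase subunit of muscle and plasmacytoid cells, was at 1.46, 1.19 and 1.90 log2 RPKM against 5.08 and 5.11, and the other 4 each lost their call on leaving out at least 1 library. Of 23 tested cholesterol synthesis genes 3 were higher and 1 lower, and without either pre-cDC2 library limma called 0 of them. Of 44 tested immunoglobulin segments 24 were higher, 17 of the 44 through the filter in pre-cDC2 alone, and 26 were tested and 5 or 9 higher with 1 pre-cDC2 library. The immunoglobulin share in the main fit was 54.5% higher, beside 12.6% over all genes. Ighm, the μ constant region, was at 8.6, 8.41 and 8.39 against 9.59 and 9.68. Of 811 tested processed pseudogenes 30 were higher (3.7%) and 34 lower (4.19%).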
